A study of Mus musculus with 7 samples.

Results

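The TNF signalling core is described here as 10 genes: the ligands Tnf, Lta and Ltb, the receptors Ltbr, Tnfrsf1a and Tnfrsf1b, and the receptor-proximal genes Traf1, Traf2, Tnfaip3 and Birc3. They were chosen by name, with earlier results of these data known, and all 10 were found among the 27179 genes of the deposited table. Messenger RNA had been sequenced from skinned ankles of DBA1 mice in which collagen-induced arthritis, a model of inflamed and eroding joints, had been raised. All ankles had received a lipoplex, a lipid carrier of nucleic acid, by injection into the joint. It carried an irrelevant control microRNA in 3 ankles (control replicates 2, 3 and 5) and a miR-17-5p mimic in 4 ankles (mimic replicates 1, 2, 4 and 5). No untreated or non-arthritic ankle was analysed here, and the age of the mice and the interval after injection were not given in the sources used here. A whole ankle holds synovium, bone, marrow, cartilage, tendon, muscle and blood, and nothing in the labels tells whether each ankle was from a different mouse. Each library had between 27465276 and 31118975 reads assigned to genes. The p-values below measure the spread between these libraries only.

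TNF is made by macrophages, neutrophils and lymphocytes as a membrane protein and is shed as a soluble trimer; in the arthritic joint it is a main inflammatory cytokine and the target of established antibody drugs. TNF and lymphotoxin alpha bind TNFR1, found on most cells, and TNFR2, found mainly on leukocytes and endothelium. Membrane lymphotoxin, made of alpha and beta chains, binds the lymphotoxin beta receptor on stromal and myeloid cells. TRAF2, TRAF1 and the ubiquitin ligase cIAP2 (the product of Birc3) assemble at these receptors to activate NF-kB, and the NF-kB target A20 (the product of Tnfaip3) turns the signal off.

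The lipoplex was given to raise miR-17-5p, and the members were searched for matches to its seed, the stretch of a microRNA that pairs with target transcripts. The mature sequence (RefSeq, GRCm38.p6, chr14:115043684-115043706, plus strand) is shown with the seed, bases 2 to 8, in capitals.
mmu-miR-17-5p: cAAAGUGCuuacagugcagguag
A match was any of GCACTTTA (8mer), CACTTTA and GCACTTT (7mers) in the 3 prime UTR of the principal transcript (GENCODE release M21, GRCm38). None of the 10 members held one, with UTRs of 156 bases (Ltb) to 2324 bases (Tnfrsf1b), whereas 20.1% of 12417 tested genes with such a UTR did. Those genes had a median UTR of 999 bases. Tnf, Lta, Ltb, Ltbr, Tnfrsf1a and Birc3 had a shorter one, and Tnfrsf1b, Traf1, Traf2 and Tnfaip3 a longer one. When the longest UTR of any coding transcript was used instead, 21.4% of 12495 tested genes held a match. Among the members 1 did, Birc3, with a match at chr9:7856753-7856759 on the minus strand. It is shown with its flanks, and the match in capitals.
Birc3-202 3 prime UTR: gtgggcatctaCACTTTAagcaaactaca
This 7mer lies at position 581 of the UTR of a short isoform, outside the exons over which the deposited Birc3 value was counted. A match is a description of the letters and not a measured site, and the amount of mature miR-17-5p in the ankles was not analysed here.

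The level of every tested member was lower on average in mimic ankles than in control ankles, but none passed the test over all genes. The test was limma on log2(FPKM + 0.5), where FPKM is fragments per kilobase of exon scaled to library size, over the 13418 genes averaging 1 FPKM or more. At an adjusted p under 0.05 it called 0% of these genes in either direction. Before adjustment, 1003 genes (7.48% of those tested) were higher and 1353 lower at a p under 0.05. With limma-voom on recovered reads it also called 0. Of the 10 members 9 were tested. In Birc3, Tnfaip3, Tnfrsf1a and Ltbr every mimic ankle lay below every control ankle, against 8.84% of all tested genes. The same 4 members had an unadjusted p under 0.05 in the lower direction, against 10.1% of all tested genes. The median log2 fold change of the 9 tested members, mimic minus control, was -0.27, and that of all tested genes was -0.0063. The members were chosen with earlier results known, so these contrasts with all genes are descriptions only. In a bulk sample, fewer cells of a type and less RNA per cell cannot be told apart.

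**Figure D1:**
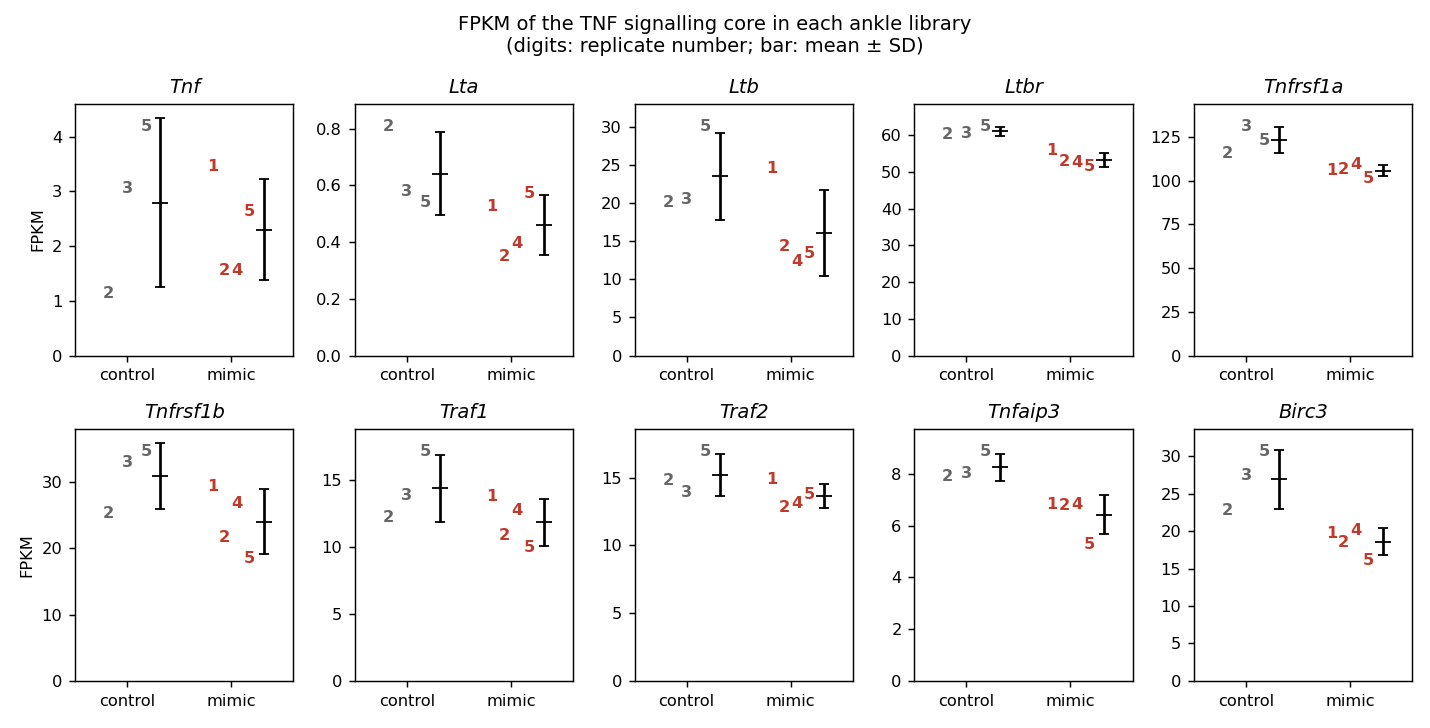
FPKM of each of the 10 genes (vertical axes, each starting at 0) in control and mimic ankles; digits are the replicate numbers of the libraries and bars the mean ± SD. The mimic digits lie wholly below the control digits for Ltbr, Tnfrsf1a, Tnfaip3 and Birc3, and the groups overlap for the other 6 genes.

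Levels per kilobase differed widely among the members. Averaged over all 7 libraries, Tnfrsf1a stood highest at 113 FPKM, followed by Ltbr at 56.6, Tnfrsf1b at 27.0, Birc3 at 22.2 and Ltb at 19.3 FPKM. Traf2 stood at 14.3, Traf1 at 13.0, Tnfaip3 at 7.21, Tnf at 2.51 and Lta at 0.538 FPKM. In this order, neighbouring genes overlapped in their range over the libraries from Tnfrsf1b down to Traf1. Tnfrsf1a, Ltbr, Tnfaip3, Tnf and Lta were each separate from their neighbours in all libraries. Per kilobase, Tnfrsf1a transcript exceeded that of its ligand Tnf in every ankle, with a ratio between 29.4 and 103.

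The 3 ligand genes lie next to each other on chromosome 17 (mm10), in the order Ltb, Tnf and Lta. Ltb (35194507 to 35196305, plus strand) ends 3084 bases before Tnf (35199390 to 35201996, minus strand), which is 1168 bases from Lta (35203165 to 35205351, minus strand). No exon of any member overlapped an exon of another gene in the table.

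Tnf was the least settled member. It stood at 1.13, 3.06 and 4.19 FPKM in control replicates 2, 3 and 5, and at 3.46, 1.55, 1.56 and 2.64 FPKM in mimic replicates 1, 2, 4 and 5. The lowest ankle of all 7 and the highest were both controls. The group means were 2.79 ± 1.55 FPKM (SD, n = 3) and 2.30 ± 0.926 FPKM (SD, n = 4). The log2 fold change was -0.16 (SE 0.39, 95% interval -1.08 to 0.76, limma adjusted p = 0.842). The values rested on 54 to 209 reads per library. Without control replicate 2 the fold change was -0.60, and without control replicate 5 it was 0.16.

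Lta, which encodes lymphotoxin alpha and is made chiefly by lymphocytes, was below the minimum for the test. Its level was 0.808, 0.579 and 0.539 FPKM in the controls and 0.524, 0.349, 0.395 and 0.573 FPKM in the mimic ankles, from 15 to 33 reads per library. Control replicate 2, lowest for Tnf, was highest for Lta, so the ratio of Tnf to Lta ran from 1.40 in that ankle to 7.76 in control replicate 5. With no minimum on low values, the log2 fold change of Lta was -0.25 (limma adjusted p = 0.404).

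Ltb, which encodes the membrane anchor chain of lymphotoxin, had the largest fold change of the tested members and also a wide spread. It stood at 20.01, 20.4 and 30.01 FPKM in the controls and at 24.5, 14.4, 12.3 and 13.3 FPKM in the mimic ankles. Mimic replicate 1 lay above 2 of the 3 controls, and the other 3 mimic ankles lay below all of them. The log2 fold change was -0.56 (SE 0.25, 95% interval -1.15 to 0.031, limma adjusted p = 0.303). Without control replicate 5 it was -0.37. Markers of the lymphocytes that make lymphotoxin overlapped between the groups. All 7 T cell markers and all 5 B cell markers were detected in every library. The summed T cell level was 19.9 to 24.5 FPKM in controls and 15.4 to 26.4 FPKM in mimic ankles, and was highest in mimic replicate 1. The summed B cell level was 11.2 to 16.9 and 7.17 to 38.2 FPKM. Their part in the values of Ltb was not tested.

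Among the receptors, Tnfrsf1a and Ltbr showed small differences with little spread. Tnfrsf1a, which encodes TNFR1 (chromosome 6, 125349723 to 125362483, plus strand), stood at 116, 131 and 123 FPKM in the controls and at 106, 106, 109 and 101 FPKM in the mimic ankles. The gap between the groups was small but no mimic ankle reached a control. The log2 fold change was -0.22 (SE 0.065, 95% interval -0.37 to -0.068, limma adjusted p = 0.193). It rested on 6352 to 8173 reads per library.

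Ltbr, which encodes the lymphotoxin beta receptor, is a neighbour of Tnfrsf1a (chromosome 6, 125306571 to 125313870, minus strand), with the gene Scnn1a between them. It stood at 60.2, 60.6 and 62.4 FPKM in the controls and at 55.9, 52.9, 52.7 and 51.4 FPKM in the mimic ankles. The groups did not overlap, and the SD within a group was 1.94% of the mean in controls, the smallest of the 10 members there, and 3.57% in mimic ankles. Its log2 fold change was -0.20 (SE 0.053, 95% interval -0.32 to -0.073, limma adjusted p = 0.176).

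Tnfrsf1b, which encodes TNFR2 (chromosome 4, 145212368 to 145246870, minus strand), stood at 25.3, 33.0 and 34.5 FPKM in the controls and at 29.3, 21.6, 26.7 and 18.5 FPKM in the mimic ankles. The groups overlapped, since control replicate 2 lay below mimic replicates 1 and 4. Its log2 fold change was -0.37 (SE 0.18, 95% interval -0.78 to 0.045, limma adjusted p = 0.327). Within each library, the ratio of Tnfrsf1b to Tnfrsf1a was 0.219, 0.252 and 0.281 in the controls and 0.276, 0.203, 0.245 and 0.182 in the mimic ankles. The balance of the 2 TNF receptor transcripts overlapped between the groups.

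The adaptors Traf1 (chromosome 2, 34943258 to 34961772, minus strand) and Traf2 (chromosome 2, 25517982 to 25546894, minus strand) had overlapping groups. Traf1, itself induced by NF-kB, stood at 12.2, 13.9 and 17.1 FPKM in the controls and at 13.8, 10.9, 12.7 and 10.0 FPKM in the mimic ankles. Traf2, which carries the cIAP ligases to the receptors, stood at 14.8, 13.9 and 16.9 FPKM and at 14.8, 12.8, 13.1 and 13.8 FPKM. Control replicate 5 was the highest ankle for both genes. Traf1 differed by -0.27 on the log2 scale (SE 0.14, 95% interval -0.60 to 0.070, adjusted p = 0.366 by limma). For Traf2 the log2 fold change was -0.15 (SE 0.083, 95% interval -0.34 to 0.046, limma adjusted p = 0.379). Without control replicate 5 the values were -0.14 for Traf1 and -0.073 for Traf2.

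Tnfaip3 and Birc3, a negative regulator and a ubiquitin ligase that are both textbook NF-kB targets, were separate between the groups. Tnfaip3 (chromosome 10, 19000910 to 19015410, minus strand) stood at 7.92, 8.003 and 8.85 FPKM in the controls and at 6.82, 6.78, 6.83 and 5.28 FPKM in the mimic ankles. Of the mimic ankles, replicates 1, 2 and 4 were nearly equal and replicate 5 was lower. The log2 fold change was -0.34 (SE 0.10, 95% interval -0.58 to -0.11, limma adjusted p = 0.193).

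Birc3 (chromosome 9, 7848699 to 7873170, minus strand) had the smallest p of the members, rank 201 of all 13418 genes. It stood at 22.8, 27.5 and 30.6 FPKM in the controls and at 19.7, 18.5, 20.1 and 16.0 FPKM in the mimic ankles. The group means were 26.9 ± 3.95 FPKM (SD, n = 3) and 18.6 ± 1.82 FPKM (SD, n = 4). Its log2 fold change was -0.52 (SE 0.12, 95% interval -0.79 to -0.24, limma adjusted p = 0.174). Birc2, the paralog that encodes cIAP1, stood at 19.1 ± 1.56 and 17.4 ± 0.381 FPKM. The ratio of Birc3 to Birc2 was 1.19, 1.57 and 1.48 in the controls and 1.13, 1.08, 1.12 and 0.943 in the mimic ankles, without overlap. Whether the 2 fold changes differed was not tested. Without control replicate 2, Birc3 was the 1 member that passed, at -0.63 (limma adjusted p = 0.0431), among 202 genes called lower, 1.5% of those tested.

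**Figure D2:**
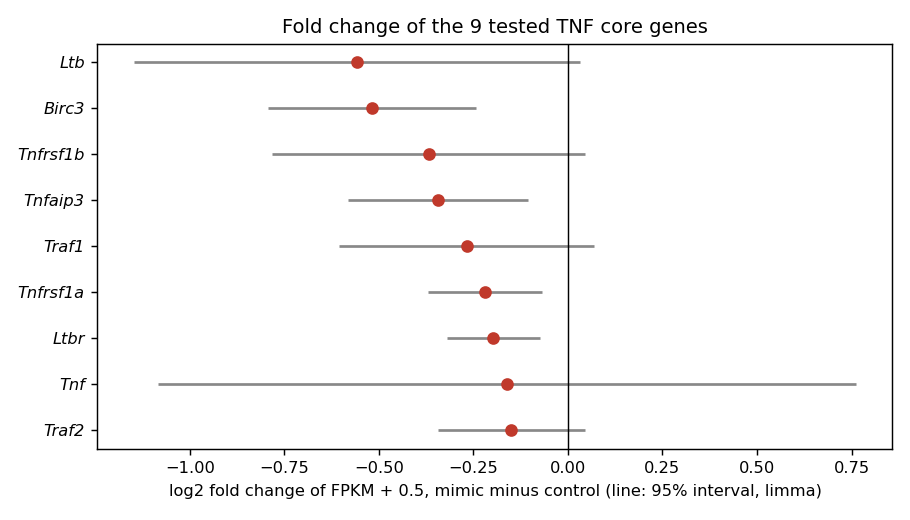
Log2 fold change of FPKM + 0.5, mimic minus control (horizontal axis), of the 9 tested genes, with lines for the 95% interval from limma. All 9 points lie below 0, and the intervals of Birc3, Tnfaip3, Tnfrsf1a and Ltbr do not reach 0, before any adjustment for the number of genes.

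The promoters of the members were read for the binding motif of NF-kB, since several of them are known NF-kB targets. RefSeq windows of 250 bases before to 50 bases after the start (GRCm38.p6) were searched on both strands for the kB consensus, and all 10 members had a window, Tnfaip3 having 2. A match was found in 2 of 11 windows, those of Ltb and Tnfaip3, and in 6.93% of all 32851 promoter windows. The matches are shown in capitals with 10 bases on each side, on the strand of the gene.
Ltb, chr17:35194410-35194439, plus strand: aagggtgttcGGAAAGTCCCcgggcagggg
Tnfaip3, chr10:19015403-19015432, minus strand: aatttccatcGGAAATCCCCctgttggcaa
Tnfaip3, chr10:19015516-19015545, minus strand: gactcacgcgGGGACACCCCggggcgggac
In Ltb the match starts 87 bases before the gene's start, and in Tnfaip3 the matches start 12 and 125 bases before it. The other 8 members had no match in these windows, which says nothing of sites elsewhere.

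Control replicate 5 was the highest library for 8 of the 10 members, and for 21.1% of all tested genes. Mimic replicate 5 was the lowest for 6 members, and for 15.6% of all tested genes. These 2 libraries were also the ends of the first principal component of all tested genes, which held 52.7% of the variance. The same libraries were the extremes for muscle markers. The skeletal muscle list, 6 markers all detected, summed to 932 FPKM in control replicate 5 and 7569 FPKM in mimic replicate 5, within ranges of 932 to 5319 FPKM in controls and 1997 to 7569 FPKM in mimic ankles. The neutrophil list, 7 markers all detected, summed to 2896 to 5620 FPKM in controls and to 1213 to 3003 FPKM in mimic ankles, lowest in mimic replicate 5. The macrophage list of 7 markers summed to 719 to 802 FPKM and 591 to 774 FPKM. Osteoclast markers, 4 genes, were the 1 list of 10 whose sums did not overlap, at 2076 to 2185 FPKM in controls and 1672 to 1874 FPKM in mimic ankles. The median log2 fold change of the 3 tested osteoclast markers was -0.28. That of the neutrophil markers was larger, at -1.01, with all 7 at a lower mean. The muscle markers went the other way, with a median of 1.00 and all 6 at a higher mean. The erythroid list, 6 markers, had a median of 1.18, with all 5 tested markers at a higher mean. Its sums overlapped, at 152.62 to 654.86 FPKM in controls and 216.88 to 1718.5 FPKM in mimic ankles. The neutrophil sums overlapped because control replicate 2, at 2896 FPKM, lay below mimic replicate 1, at 3003 FPKM. No marker of any list was at 0 in any library. The part of these cells in the values of the members was not tested beyond the muscle, erythroid and neutrophil covariates. The labelled tissue was borne out by its own markers: cartilage genes summed to at least 669 FPKM and fibroblast genes to at least 8803 FPKM in every library.

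Fitted with the mean of the neutrophil markers as a covariate, 6 members kept a lower and 3 a higher fitted level in mimic ankles, and 0 had an unadjusted p under 0.05. Among all tested genes, the share lower at that p fell from 10.1% to 2.33%. The neutrophil mean itself was 6.15 to 7.14 in controls and 5.00 to 6.17 in mimic ankles on the log2 scale. With 7 libraries, this fit can hardly separate it from the group. Under that covariate Birc3 was at -0.22, Tnfaip3 at -0.13, Tnfrsf1a at -0.12, Ltb at -0.21 and Ltbr at -0.14, while Tnf turned to 0.35, Tnfrsf1b to 0.10 and Traf1 to 0.060. Fitted with the mean of the muscle markers instead, Birc3 was at -0.38, Tnfaip3 at -0.27, Tnfrsf1a at -0.195 and Ltbr at -0.165. These same 4 members had an unadjusted p under 0.05, where 6.45% of all tested genes were lower at that p. Tnf turned to 0.29. Of the other tested members, Ltb moved to -0.27, Tnfrsf1b to -0.16, Traf1 to -0.073 and Traf2 to -0.074. Adjusted for erythroid markers, Traf2 was at -0.080, Ltb at -0.46 and Tnf at 0.20. The other tested members moved away from 0. Birc3 was at -0.57, Tnfaip3 at -0.44, Tnfrsf1b at -0.50, Traf1 at -0.30, Tnfrsf1a at -0.26 and Ltbr at -0.21. Birc3, Tnfaip3, Tnfrsf1a and Ltbr again had an unadjusted p under 0.05, where 6.58% of all tested genes were lower at that p. None passed over all genes under any of these covariates (limma adjusted p from 0.234 to 0.975).

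**Figure D3:**
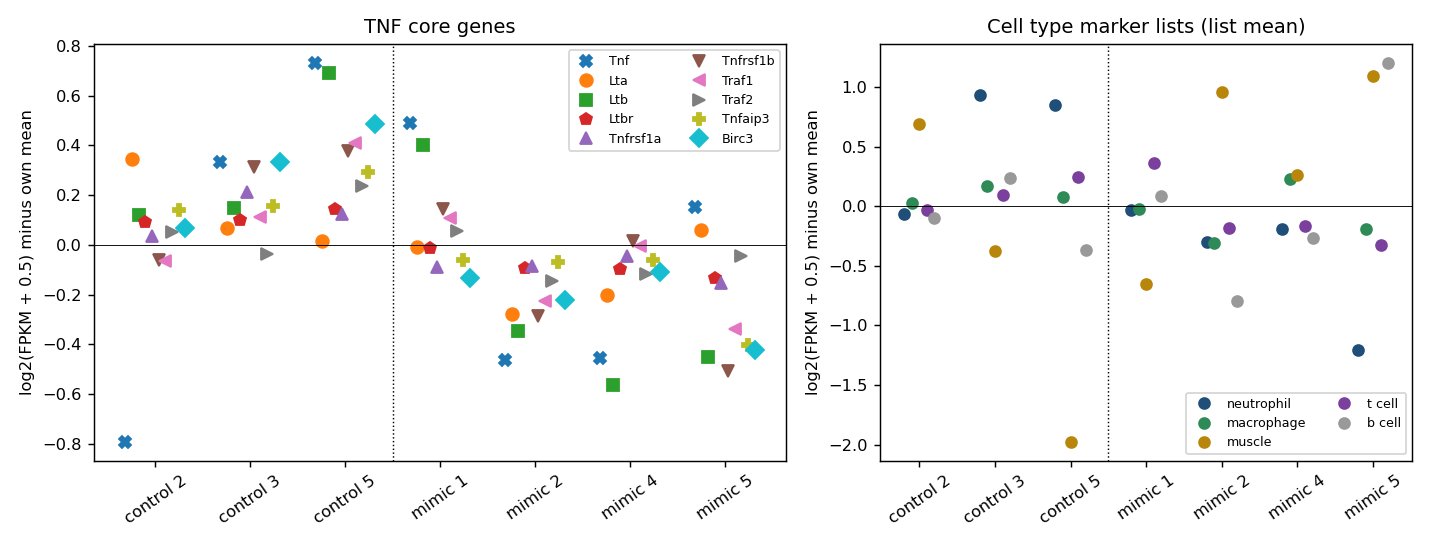
Left, log2(FPKM + 0.5) of each of the 10 genes minus its own mean over the 7 libraries; right, the same for the mean of 5 cell type marker lists, with a dotted line between control and mimic libraries and points set side by side within a library. Control replicate 5 is highest for 8 genes and lowest for the muscle list, and mimic replicate 5 is lowest for 6 genes and for the neutrophil list.

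The other genes of the pathway were taken from 6 lists with 71 genes, of which 68 were tested and 0 passed. Their levels were lower on average in mimic ankles for 52 of the 68, where 51.7% of all tested genes had a lower mean. The groups did not overlap for 23 in the lower and 1 in the higher direction, against 8.84% and 6.48% of all tested genes. The TNF-induced list alone gave 18 of the 52 lower means and 15 of the 23 without overlap. Lower values of other inflammatory genes in these ankles were known when that list was written.

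The list for release of TNF from the cell surface, which includes the inhibitor Timp3, had a median log2 fold change of -0.081. Of its 5 genes 3 had a lower mean, against 51.7% of all tested genes. The 2 at a higher mean were Timp3 and Rhbdf1, the latter at 0.057. Rhbdf2, the iRhom that carries the TNF-cleaving protease in immune cells, stood at 11.9, 12.2 and 12.2 FPKM in the controls and at 9.46, 8.63, 9.61 and 8.74 FPKM in the mimic ankles, without overlap. By limma, mimic minus control was -0.40 on the log2 scale (SE 0.059, adjusted p = 0.173). Adam17, the protease itself, differed by -0.29 on the log2 scale (SE 0.13), with overlapping groups. Its difference was between -0.44 and -0.19 when 1 library was left out, the ends coming without control replicates 2 and 5, and was -0.080 adjusted for neutrophil markers. Timp3, its tissue inhibitor, differed by 0.45 (SE 0.20), also with overlap. That value was 0.27 without control replicate 5, 0.11 adjusted for erythroid markers and 0.70 adjusted for neutrophil markers. Rhbdf2 was at -0.33 under the neutrophil adjustment.

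Of 8 genes that control the life of Tnf transcripts, 6 had a lower mean, against 51.7% of all tested genes. Zc3h12a, which encodes the RNase regnase-1, stood at 14.1 ± 2.09 FPKM in controls and 8.12 ± 0.896 FPKM in mimic ankles, with a limma log2 fold change of -0.76 and adjusted p = 0.173 (SE 0.12). Zfp36, which encodes tristetraprolin, a protein that binds and destabilises Tnf mRNA, stood at 59.7, 119 and 74.5 FPKM in the controls and at 41.7, 60.2, 51.9 and 50.1 FPKM in the mimic ankles. Control replicate 3 stood far above the other controls, and mimic replicate 2 reached above control replicate 2. Elavl1, which stabilises such transcripts, differed by -0.19 on the log2 scale (SE 0.083). Adjusted for neutrophil markers, Zc3h12a was at -0.46, Zfp36 at -0.40 and Elavl1 at -0.064. Over all 7 libraries, the log2 fold change of Zfp36 was -0.67 (SE 0.23, limma adjusted p = 0.223). Without control replicate 3, Zfp36 was at -0.40, and without control replicate 2 at -0.89.

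The receptor-bound complex had a median of -0.080 on the log2 scale. Of its 22 tested genes 16 had a lower mean, against 51.7% of all tested genes. Tnip1, which encodes a partner of A20, stood at 31.0 ± 1.11 FPKM in controls and 27.0 ± 0.510 FPKM in mimic ankles. Tnip2, of the same family, lay between 20.6 and 20.9 FPKM in controls and between 16.5 and 19.0 FPKM in mimic ankles. Map3k14, which encodes the kinase NIK of the non-canonical NF-kB arm used by the lymphotoxin beta receptor, stood at 11.1 ± 1.15 and 8.41 ± 0.958 FPKM. None of these 3, named for having the smallest p of the list, overlapped between the groups. In the order given, their log2 fold changes were -0.20, -0.20 and -0.38 (limma adjusted p = 0.176, 0.202 and 0.179). With the neutrophil covariate they were -0.17, -0.17 and -0.29. Over the whole list, 5 genes were lower and 1 was higher (Rbck1, at 0.14) without overlap, against 8.84% and 6.48% of all tested genes.

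The death arm of TNFR1 had 7 of 8 genes at a lower mean, against 51.7% of all tested genes. Its median log2 fold change was -0.10, and its groups overlapped at every gene. Ripk3, the kinase of necroptosis, differed by -0.43 on the log2 scale (SE 0.16, adjusted p = 0.251 by limma). Casp8, the initiator caspase, and Bid, its substrate at mitochondria, had -0.17 and -0.19 (SE 0.098 and 0.12). Adjusted for neutrophil markers, Ripk3 was at -0.089, Casp8 at -0.046 and Bid at 0.051. Without control replicate 5, Ripk3 was at -0.29 and Casp8 at -0.10, and without mimic replicate 2 Casp8 was at -0.11. Without mimic replicate 5, Bid was at -0.12.

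Textbook TNF-induced genes showed the lowest median of the 6 lists, at -0.62 over 19 tested genes. Of these, 18 had a lower mean, against 51.7% of all tested genes. The groups did not overlap, in the lower direction, for 15, against 8.84% of all tested genes. Relb, an NF-kB subunit, stood at 28.1, 27.4 and 28.9 FPKM in the controls and at 23.5, 23.0, 22.5 and 21.5 FPKM in the mimic ankles, with a limma log2 fold change of -0.31 and adjusted p = 0.173 (SE 0.053). Nfkbia, which encodes the NF-kB inhibitor IkB-alpha, stood at 101 ± 7.29 and 76.0 ± 6.58 FPKM, with a limma log2 fold change of -0.40 and adjusted p = 0.174 (SE 0.088). Ccl20, a chemokine, had the largest log2 fold change of the list, -2.01 (limma adjusted p = 0.174), beside -1.99 for Il6, while Mmp3, Ccl2 and Cxcl1 differed by more FPKM. Ccl20 stood at 16.9, 28.6 and 30.5 FPKM in the controls and 2.83, 10.5, 7.95 and 4.25 FPKM in the mimic ankles. Adjusted for neutrophil markers, Nfkbia was at -0.24, Relb at -0.26 and Ccl20 at -1.56. Several of these genes are induced by other inflammatory signals as well, and lower values of other inflammatory genes in these ankles were known when the list was written.

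The lymphotoxin beta receptor axis had 6 tested genes, 4 at a higher mean, with a median of 0.066, where 51.7% of all tested genes had a lower mean. Tnfsf14, which encodes LIGHT, a further ligand of this receptor, stood apart from its list. It stood at 4.64, 8.99 and 9.48 FPKM in the controls and at 3.16, 2.64, 3.63 and 2.43 FPKM in the mimic ankles, with a limma log2 fold change of -1.20 and adjusted p = 0.174 (SE 0.24). Adjusted for neutrophil markers it was at -0.61. Glycam1 and Cxcl13, genes of lymphoid stroma and vessels, had overlapping groups and log2 fold changes of 0.20 and -0.25 (SE 0.14 and 0.30). Leaving out 1 library put Cxcl13 between -0.50 (without control replicate 2) and -0.050 (without mimic replicate 2), and Glycam1 between 0.12 (without mimic replicate 5) and 0.31 (without mimic replicate 2). Without control replicate 2, 5 of the 68 tested genes of the 6 lists were called lower by limma and 0 higher. In that setting 1.5% of all tested genes were called lower and 0.857% higher. The 5 genes were Rhbdf2, Zc3h12a and Tnfsf14 (adjusted p = 0.0437, 0.0302 and 0.0219), with Ccl2 and Sod2.

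**Figure D4:**
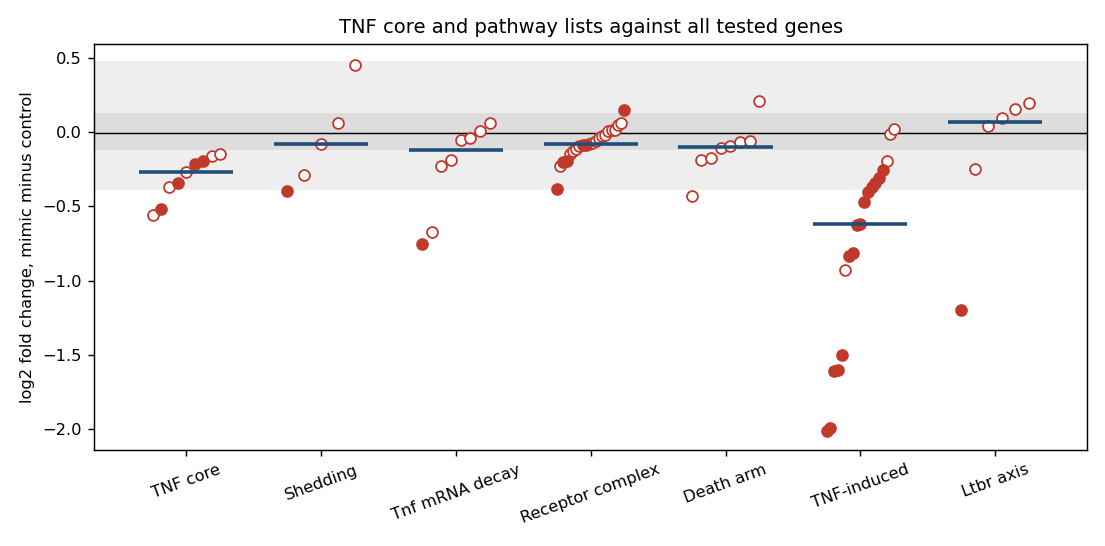
Log2 fold change, mimic minus control, of each tested gene in the core and the 6 pathway lists; filled points mark genes whose groups did not overlap, blue lines list medians, and the grey bands the middle 50% and 90% of all tested genes around their median (black line). The TNF-induced list lies lowest, with a median of -0.62, and the receptor complex near the median of all genes.

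Genes with the profile most like that of a member were sought over the 7 libraries, by the root-mean-square difference of log2(FPKM + 0.5) after centring each gene on its mean. For Tnf, whose own profile had an SD of 0.571, the nearest were the small nucleolar RNAs Snora64 (0.163), Snord49a (0.165), Snord14d (0.244) and Snord99 (0.271), with 4 to 41 reads per library, and Cd3g (0.263), a chain of the T cell receptor complex. For Traf1, with an SD of 0.245, they were Soat1 (0.0462), a cholesterol-esterifying enzyme, Cd84 (0.0483), a leukocyte adhesion receptor, Abi3 (0.0535), Plekho2 (0.0581) and Glipr1 (0.0589). When 1 library was left out, 3 to 5 of these genes stayed among the nearest 5 for Tnf and 0 to 3 for Traf1.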

How the data were processed

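Values were FPKM per gene and library, deposited by the authors as 1 table, with exon length and positions per the file headers. Tools listed in the submitters' processing notes, with no role stated, are STAR 2.5.2b, featureCounts, Subread, bcl2fastq 2.20 and DESeq2 1.14.1, with builds mm10 and GRCm38. Whether strand was used in counting, and the annotation release, were not given in the sources used here. A RefSeq table of that build (GRCm38.p6) gave symbols for 25275 of the 27179 Entrez numbers.

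Multiplied by exon length, 100% of values were whole reads to within 0.01, which gave 27465276 to 31118975 assigned reads per library. Over 21 library pairs, chi-square per gene was at least 16.7, above sampling noise, so no libraries were merged.

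The test was limma 3.58.1 in R 4.3.3 (trend, 2-sided) on log2(FPKM + 0.5) over genes averaging 1 FPKM or more, Benjamini-Hochberg adjusted over all of them. A log2 fold change so computed understates the change of low genes. Alternatives were other pseudocounts, filters and scalings, no variance trend, limma-voom on recovered reads, the replicate number as a block, muscle, erythroid or neutrophil list means as covariates, and leaving out each library. The code was tested on simulated data. Named were all members, the 3 genes with the smallest p in each pathway list, and the 5 genes most like Tnf and Traf1, leaving out predicted genes and genes with an SD under 0.5 times that of the member. Other genes named, such as Birc2, Il6, Mmp3, Ccl2, Cxcl1 and Sod2, were chosen after their values were seen. Members and lists were chosen with earlier results of these data known. Python 3.11.15, pandas 2.3.3 and matplotlib 3.10.9 were used.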

Additional observations from a re-analysis of the deposited data

Results flagged for a closer look

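Within the 4 mimic ankles, 2 of the 28 genes checked had 1 library set far from the rest, where chance gives about 1 in 20 groups. Tnfaip3 stood at 5.28 FPKM in mimic replicate 5, and its gap to the next ankle made up 0.97 of the group's range. Ltb stood at 24.5 FPKM in mimic replicate 1, with a gap of 0.83 of the range, just past the critical value. Without these libraries the log2 fold changes were -0.26 for Tnfaip3 and -0.77 for Ltb.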

How the results depend on the processing

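Over 19 alternatives, the members gave 171 fold changes, of which 164 kept their direction and their side of the threshold. Tnf turned higher with the muscle (0.29), erythroid (0.20) and neutrophil (0.35) covariates and ran from -0.60 to 0.16 when 1 library was left out. With the neutrophil covariate Tnfrsf1b (0.10), Traf1 (0.060), Bid (0.051) and Cxcl13 (0.26) turned higher, and Cxcl13 also with the muscle covariate (0.11). The cause was not tested. When 1 library was left out, genes called higher ran from 0 to 115, genes called lower from 0 to 202, and members called from 0 to 1, the highest values coming without control replicate 2. Without mimic replicate 5, 2 genes were called, Apol9b and Ifit3. With no minimum on low values, 1 gene was called lower, Scarna2, named after its value was seen. With the replicate block, 0 genes and 0 members were called. It uses the numbers found in both groups, 2 and 5, whose pairs had deviations correlated at 0.535 and -0.435, so the numbers were not taken to pair the ankles. Median-of-ratios scaling and quantile normalization moved the median of all genes to 0.0052 and -0.011 and kept all 9 tested members lower. Depth limits Lta, with 15 to 33 reads per library, and Tnf, with 54 to 209.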

Other observations

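Of the pathway genes, 3 lay below the minimum of the test: Csf2, Cr2 and Madcam1. Madcam1, an adhesion molecule of lymphoid vessels, chosen here after its values were seen, had a higher mean in mimic ankles and no overlap between the groups, at 0.379 ± 0.179 FPKM (SD, n = 3) in controls and 0.694 ± 0.185 FPKM (SD, n = 4) in mimic ankles. The nearest libraries, control replicate 2 at 0.525 FPKM and mimic replicate 5 at 0.533 FPKM, had 22 reads each, so their order was not detectable at this depth, and all libraries had 7 to 40 reads. Of all tested genes, 6.48% were higher without overlap. Csf2, a growth factor of myeloid cells, stood at 0.0449 ± 0.0222 and 0.0726 ± 0.0602 FPKM with overlapping groups, from 1 to 5 reads per library.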
